A study of Mus musculus with 8 samples.

Results

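The leukocyte integrins described here are 10 genes, Itgal, Itgam, Itgb2, Itga4, Itgb7, Itgb1, Itga5, Itga6, Itgav and Itga9, chosen by name, and all 10 were found among the 13708 genes of the count table. Their transcripts were measured by mRNA sequencing of sorted LSK cells of mouse bone marrow, a sort for cells without lineage markers that carry Sca-1 and c-Kit, which holds the blood stem cells and multipotent progenitors. The 4 db/db samples came from mice of the line B6.BKS(D)-Leprdb/J, homozygous for the mutated leptin receptor, and the 4 db/m samples came from B6.BKS(D)-Leprdb/+ mice, which carry 1 mutated copy. All 8 samples were taken at 6 months of diabetes by their labels. Groups follow the genotype label, since every sample title reads db/m, and the age of the mice is not given in the sources used here. The mutation is carried in every cell of the animal, so the LSK cells and their surroundings differ in genotype together, and nothing in the labels says whether the libraries are separate mice. The p-values therefore measure the spread between these samples.

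Integrins are adhesion receptors made of 1 alpha and 1 beta subunit, and they switch from a resting to a ligand-binding shape when talin and kindlin bind the tail of the beta subunit. In blood cells the Itgb2 product pairs with those of Itgal and Itgam, among the genes described here. The first pair is the receptor for ICAM proteins on other cells, and the second is a complement receptor of myeloid cells. The Itga4 product pairs with either of 2 beta subunits: with that of Itgb1 it binds VCAM-1 and fibronectin and holds stem and progenitor cells in the marrow, and with that of Itgb7 it binds MAdCAM-1 and directs cells to the gut. Itgb1 also serves Itga5 (fibronectin), Itga6 (laminin), Itgav (vitronectin and other proteins) and Itga9 (VCAM-1 and tenascin).

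Itgal lies on chromosome 7 of mm10 from 127296260 to 127335137 on the plus strand, and Itgam begins 728 kb beyond its end, at 128062640. Itgb2 lies on chromosome 10 from 77530348 to 77565674. Chromosome 2 holds Itga6 from 71786939 to 71858427, Itga4 from 79255426 to 79333114 and Itgav from 83724397 to 83806917. Chromosome 15 holds Itgb7 from 102215995 to 102231935 and Itga5 from 103344286 to 103366748, both on the minus strand. Itgb1 lies on chromosome 8 from 128685654 to 128733579 and Itga9 on chromosome 9 from 118606709 to 118901003. The deposited rows count reads over all exons of a gene, from 15 exon blocks for Itgb7 to 31 for Itgal. In the GENCODE M21 annotation of the same build, Cerkl overlaps the end of Itga4 on the opposite strand, Gm49368 overlaps Itgam and Mir6963 overlaps Itga5 on the same strand, and Itgav and Itga9 overlap non-coding genes on the opposite strand. Whether strand was used in counting is not given in the sources used here. Without strand, reads of the neighbours on the opposite strand cannot be told apart from those of the integrins, and strand would not separate those of Gm49368 and Mir6963.

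RefSeq promoter sequences (GRCm38.p6) were matched for 7 of the 10 genes, not for Itgal, Itgb2 or Itga6. Those of Itga4 and of the 2 beta subunits that pair with it are shown, because the ratio of Itgb7 to Itgb1 transcripts is described with the values of Itga4. Each runs 5′ to 3′ on the gene's own strand over 270 bases, 250 before the start and 20 from it on, at chr2:79255176-79255445 (plus), chr15:102231916-102232185 (minus) and chr8:128685404-128685673 (plus) in this order. Capitals mark matches, on either strand, to 4 short motifs, and no match overlaps another. The motif of PU.1-type ETS factors was spelled GAGGAA. For RUNX factors the letters TGTGGT were searched. GATA factors were represented by AGATAA. The SP and KLF factors were represented by GGGCGG.
Itga4: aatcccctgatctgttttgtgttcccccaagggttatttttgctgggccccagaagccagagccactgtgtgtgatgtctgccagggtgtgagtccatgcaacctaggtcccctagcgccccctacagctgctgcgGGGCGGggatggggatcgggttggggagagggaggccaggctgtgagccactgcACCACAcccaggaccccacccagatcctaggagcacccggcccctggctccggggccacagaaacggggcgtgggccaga
Itgb7: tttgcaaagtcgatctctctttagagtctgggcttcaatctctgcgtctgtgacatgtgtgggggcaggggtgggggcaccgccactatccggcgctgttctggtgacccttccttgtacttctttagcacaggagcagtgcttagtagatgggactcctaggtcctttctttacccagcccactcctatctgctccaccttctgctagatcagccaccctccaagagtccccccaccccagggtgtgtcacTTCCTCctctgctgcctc
Itgb1: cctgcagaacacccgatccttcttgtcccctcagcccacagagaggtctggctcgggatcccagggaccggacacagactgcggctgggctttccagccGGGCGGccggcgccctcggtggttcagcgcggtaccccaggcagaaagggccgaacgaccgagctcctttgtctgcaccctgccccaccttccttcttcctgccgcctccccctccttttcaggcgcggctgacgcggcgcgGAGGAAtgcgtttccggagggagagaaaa
The Itgb7 window holds 1 ETS match, whose first base is at position 3 counted from the start, and no other match. The Itgb1 window holds 1 ETS match at -9 and 1 SP and KLF match at -151, and the Itga4 window holds 1 RUNX match at -60 and 1 SP and KLF match at -114. Of 32851 promoter windows of this length, 25.1% hold the ETS motif, 15.1% the RUNX motif, 10.5% the GATA motif and 34.1% the SP and KLF motif, so such matches are common. They are matches of letters and were not tested as binding sites.

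Total counts per library ran from 27640853 to 42806327 in db/db samples and from 27801581 to 35557731 in db/m samples. The integrins were read deeply in each library, from 384 counts for Itga9 to 16373 counts for Itgb1. The sort markers were present: Kit had 621 to 1054 CPM (counts scaled to library size with TMM) in db/db libraries and 563 to 799 CPM in db/m libraries, and Ly6a, which encodes Sca-1, had 91.7 to 178 CPM in db/db libraries and 317 to 568 CPM in db/m libraries. Ly6a thus differed between the genotypes (log2 fold change -1.83, adjusted p = 0.0445 by edgeR's quasi-likelihood test). It was 1 of only 5 genes past an adjusted p of 0.05. Whether the sorts of the genotypes held the same mix of cells was not tested. Intergenic reads made up 5.15% to 11.9% of uniquely mapped reads in db/db libraries and 12.2% to 26.5% in db/m libraries, with no overlap (two-sided exact permutation p = 0.0286, the smallest that 4 against 4 samples allow).

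Per kilobase of exon length, Itgb1 was the most abundant member in both genotypes, at 91.7 ± 3.31 CPM per kilobase in db/db and 74.5 ± 5.48 CPM per kilobase in db/m (SD, n = 4 each). In db/db the order then ran Itgb7 (38.8), Itgb2 (29.1), Itga6 (26.5), Itgal (20.3), Itga5 (17.5), Itga4 (7.29), Itgam (6.10), Itgav (4.37) and Itga9 (3.26). In this order the gaps between Itgb1 and Itgb7 and between Itga5 and Itga4 were free of overlap, and all other neighbours overlapped between libraries. In db/m Itgal stood in place 3, at 51.3 ± 10.1 CPM per kilobase, next to Itgb7 at 54.4 ± 13.9 CPM per kilobase and above Itgb2 at 33.1 ± 2.69 CPM per kilobase. In db/db it stood in place 5, below Itga6. The highest Itgb7 library of db/m lay within the range of Itgb1. The lowest members in db/m were likewise Itgav (2.79) and Itga9 (2.01).

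**Figure D1:**
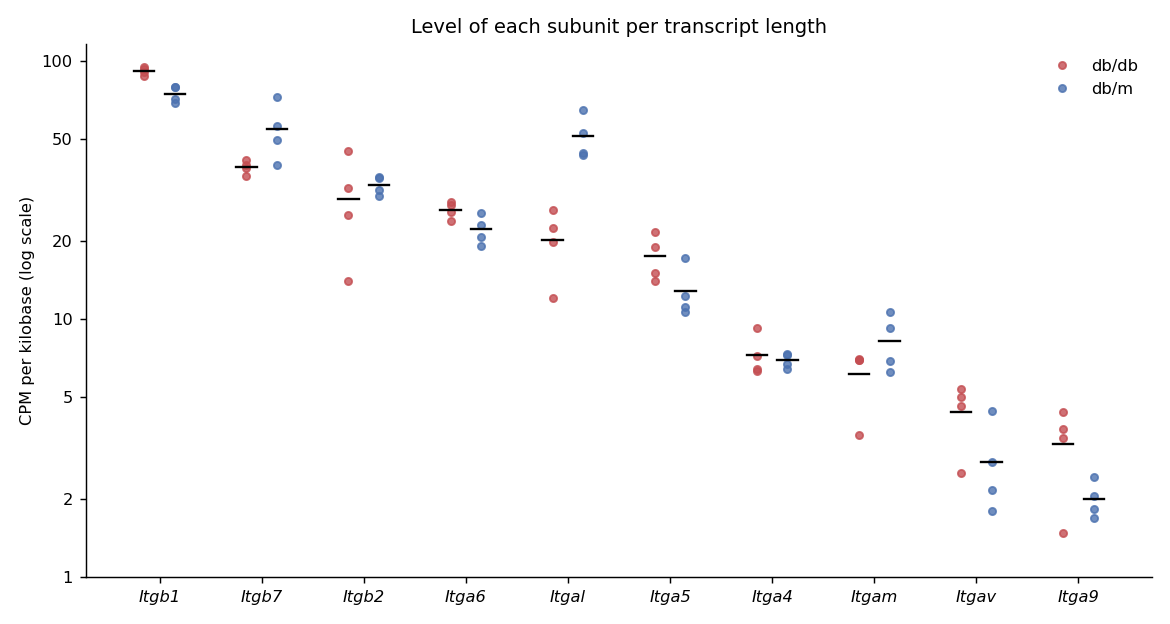
Level of each integrin subunit in CPM per kilobase of exon length (log axis), with 1 point per library (4 db/db left, 4 db/m right of each pair) and a bar at the mean, ordered by the db/db mean. Itgb1 is highest in both genotypes, and Itgal is the member whose points stand farthest apart, at 12.03 to 26.5 in db/db and 43.4 to 64.9 in db/m.

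Between the genotypes 0 of the 10 integrins passed 0.05 after adjustment over all genes by edgeR's quasi-likelihood test, where 5 genes (0.0365%) passed among 13708. At an adjusted p under 0.1 by edgeR 1 member, Itgal, passed, beside 1.63% of all genes. At an unadjusted p under 0.05 by the same test 3 members were higher (Itgb1, Itga5 and Itga9) and 2 were lower (Itgal and Itgb7), beside 7.78% and 7.54% of all genes (15.3% in either direction). For 2 members the db/db and db/m libraries were fully apart, Itgb1 (higher, beside 4.5% of all genes) and Itgal (lower, beside 4.53%), where 9.03% of all genes were apart in either direction. The median log2 fold change was 0.16 over the 10 members and 0.01 over all genes. The authors' deposited table, whose p-values come from a test that matches edgeR's likelihood ratio test, lists 1 member, Itgal, with a false discovery rate under 0.05, beside 4.28% of all genes.

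**Figure D2:**
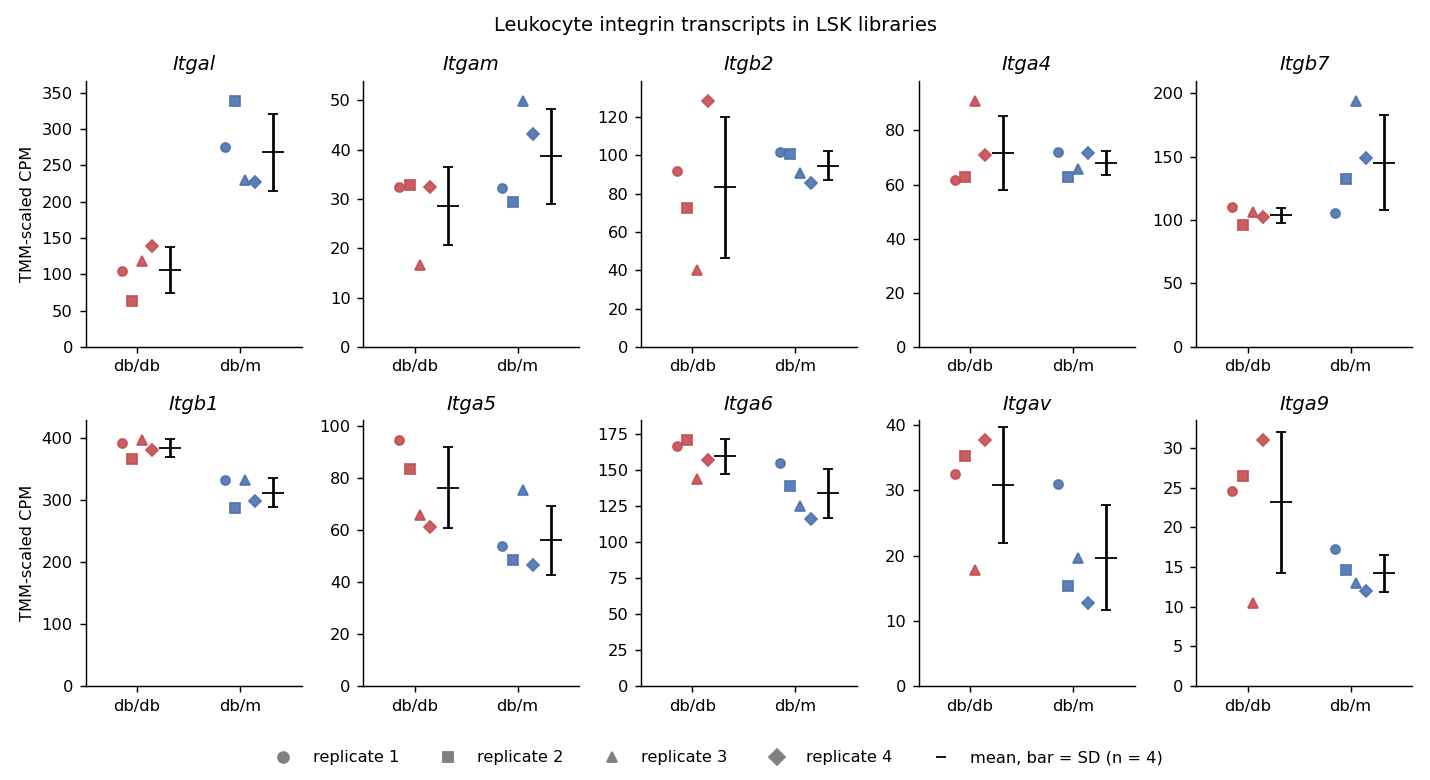
TMM-scaled CPM of each integrin in each of the 8 libraries (linear axes from 0), db/db left and db/m right, with marker shapes for replicates and the mean with its SD beside each group. Itgal lies between 62.8 and 139 CPM in db/db and between 227 and 339 CPM in db/m, and in Itgam, Itgb2, Itgav and Itga9 the lowest db/db point is replicate 3.

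Itgal, the alpha subunit of the ICAM receptor of lymphocytes and other leukocytes, had 104, 62.8, 118 and 139 CPM in db/db replicates 1 to 4, and 276, 339, 230.3 and 227 CPM in db/m replicates 1 to 4. Every db/db library was thus below every db/m library. The means were 106 ± 32.1 CPM in db/db and 268 ± 52.5 CPM in db/m (SD, n = 4 each). The log2 fold change was -1.34 ± 0.23 (SE), the largest in size among the 10 members, and by edgeR's quasi-likelihood test it missed the threshold, at an adjusted p of 0.0797. Itgal ranked 30 of 13708 genes by p. In bulk RNA, fewer cells that express a gene and less of its RNA per cell cannot be told apart.

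The call of Itgal depended on the test and on single libraries. The authors' deposited table gives it a log2 fold change of -1.34 and a false discovery rate of 6.81e-05. DESeq2 gave an adjusted p of 1.26e-05, and limma-voom with quality weights gave 0.0355. Limma-voom without these weights missed the threshold (0.0685), also with the title prefix as a block (0.0519). With the quasi-likelihood test of edgeR the adjusted p was 0.0451 without db/db replicate 4 (log2 fold change -1.503) and 0.0439 without db/m replicate 3 (-1.41). Leaving out any other single library kept it above 0.05, up to 0.184 without db/m replicate 4. Without db/m replicate 3 the unadjusted p of Itgal by that test rose from 0.000193 to 0.00025, while lower calls over all genes rose from 3 to 78. Without db/db replicate 4 the unadjusted p was 0.000142, and lower calls over all genes rose to 42. Without db/db replicate 2 it was 0.000128, below that of the full set, but the adjusted p was 0.146. With any single library left out, the unadjusted p by that test stayed between 0.000128 and 0.000922. The log2 fold change was negative in each of the 19 alternatives run, between -1.70 and -1.12, and the weakest value came after db/m replicates 1, 2 and 4 (over 20% intergenic reads) were left out (adjusted p = 0.230 by edgeR, with the lone db/m library assumed to vary like the db/db libraries).

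Markers of lymphoid cells and of granulocyte-monocyte progenitors mostly had negative log2 fold changes, as did Itgal. All 6 tested B cell markers had negative log2 fold changes, and their summed level was 106 to 319 CPM in db/db and 235 to 466 CPM in db/m. Of 9 T and NK cell markers 8 were negative, with a sum of 178 to 226 CPM in db/db and 238 to 433 CPM in db/m, mostly Nkg7 and Lck. The T cell receptor complex chains Cd3d, Cd3e and Cd3g were at 0.0485 to 1.43 CPM in db/db and 0.973 to 6.93 CPM in db/m, and Cd8a was at 0 in db/db replicate 3. Of 7 lymphoid progenitor markers 6 were negative, with a sum of 762 to 1007 CPM in db/db and 1176 to 1642 CPM in db/m, most of it Flt3, whose groups overlapped (468 to 605 CPM in db/db and 456 to 551 CPM in db/m), and Dntt. All 8 plasma cell markers were negative, with a sum of 1367 to 6227 CPM in db/db and 4224 to 18048 CPM in db/m. Of 10 granulocyte-monocyte progenitor markers 9 were negative. The median of that list was -0.88 on the log2 fold change scale, and the sum was 2195 to 5520.3 CPM in db/db and 3294 to 13546 CPM in db/m. The sums of the B cell, plasma cell and granulocyte-monocyte progenitor lists overlapped between the groups. At an unadjusted p under 0.05 by edgeR, 3 B cell, 7 T and NK cell and 4 lymphoid progenitor markers were lower. So were 8 plasma cell and 5 granulocyte-monocyte progenitor markers, beside 7.54% of all genes. Other lists were mostly negative too, with overlapping sums: 5 of 6 mast cell and basophil, 5 of 7 dendritic cell and 5 of 8 neutrophil markers. The part of these cells in the Itgal difference was not tested.

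Itgb2, the beta subunit that Itgal and Itgam share, had 92.0, 72.5, 40.3 and 128.5 CPM in db/db replicates 1 to 4, and 102, 101, 90.8 and 85.7 CPM in db/m replicates 1 to 4. The groups overlapped, and the db/db libraries held both the lowest and the highest value. Its value on the log2 fold change scale was -0.18 ± 0.28 (SE), with an adjusted p of 0.803 by edgeR. It turned to 0.05 without db/db replicate 3 and was -0.49 without db/db replicate 4. Itgam, the alpha subunit of the complement receptor of myeloid cells, had 32.5, 32.8, 16.6 and 32.4 CPM in db/db replicates 1 to 4, and 32.1, 29.3, 49.9 and 43.1 CPM in db/m replicates 1 to 4. Here 3 db/db libraries lay close together, between the lower and the higher pair of db/m libraries, and db/db replicate 3 lay far below them. The log2 fold change of Itgam was -0.44 ± 0.25 (SE), with an adjusted p of 0.442 by edgeR, and -0.25 without db/db replicate 3.

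The log2 ratio of Itgal to Itgb2, from CPM per kilobase, was -0.69, -1.07, 0.68 and -0.76 in db/db replicates 1 to 4, and 0.57, 0.89, 0.48 and 0.53 in db/m replicates 1 to 4. Per kilobase Itgal was thus below Itgb2 in 3 db/db libraries, and above it in every db/m library and in db/db replicate 3. The ratio in db/db replicate 3 rests on its low Itgb2. For Itgam to Itgb2 the log2 ratio was -2.19 ± 0.37 in db/db and -2.03 ± 0.46 in db/m (SD, n = 4 each), a difference below the spread between libraries.

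Itgb7, the beta subunit of the gut-homing receptor, had 110.4, 96.0, 106 and 103 CPM in db/db replicates 1 to 4, and 106, 133, 194 and 149 CPM in db/m replicates 1 to 4. The db/db libraries were closely grouped, and the groups met at db/m replicate 1, which lay within the db/db range. Its log2 fold change was -0.49 ± 0.17 (SE), with an adjusted p of 0.211 by edgeR, and it was -0.33 (adjusted p = 0.290) without db/m replicate 3, the highest library. With db/m replicates 1, 2 and 4 (over 20% intergenic reads) left out, so that this highest library alone stood for db/m, it was -0.90 (adjusted p = 0.0898 by edgeR). Itgb1, the most widely shared beta subunit, had 393, 366, 397 and 382 CPM in db/db replicates 1 to 4, and 332, 287, 332 and 298 CPM in db/m replicates 1 to 4. All db/db libraries lay above all db/m libraries. The log2 fold change of Itgb1 was small, 0.30 ± 0.10 (SE), with an adjusted p of 0.198 by edgeR, and it was between 0.21 and 0.33 in the 19 alternatives.

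Itga4, the alpha subunit that both of these beta subunits can take, had 61.6, 63.0, 91.0 and 70.9 CPM in db/db replicates 1 to 4, and 72.1, 62.7, 65.9 and 71.5 CPM in db/m replicates 1 to 4. The groups overlapped, and db/db replicate 3 held the highest value. Its log2 fold change was 0.07 ± 0.14 (SE), with an adjusted p of 0.845 by edgeR, and it was -0.06 without db/db replicate 3. The log2 ratio of Itgb7 to Itgb1 from CPM per kilobase, a pair chosen after the values were seen, was -1.18, -1.28, -1.25 and -1.25 in db/db replicates 1 to 4, and -1.001, -0.47, -0.12 and -0.35 in db/m replicates 1 to 4. All db/db libraries lay below all db/m libraries, with a ratio on the linear scale of 0.412 to 0.441 in db/db and 0.4995 to 0.918 in db/m. Every other subunit ratio computed overlapped between the groups, and Itgb1 alone was already fully apart. How often ratios of other gene pairs separate the groups was not computed. The log2 ratio of Itga4 to Itgb7 was -2.43 ± 0.25 in db/db and -2.94 ± 0.41 in db/m, and that of Itga4 to Itgb1 was -3.67 ± 0.23 in db/db and -3.43 ± 0.11 in db/m (SD, n = 4 each), with overlap in both.

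**Figure D3:**
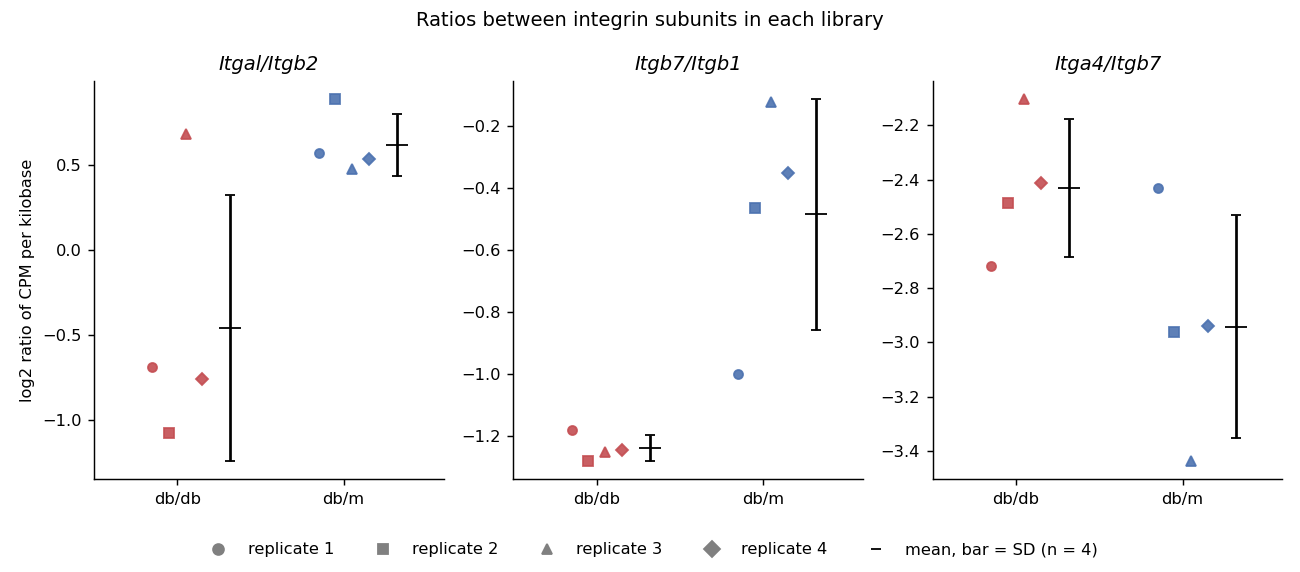
Log2 ratio of CPM per kilobase between 2 subunits in each library, for Itgal over Itgb2, Itgb7 over Itgb1 and Itga4 over Itgb7, db/db left and db/m right, with the mean and its SD. The Itgb7 to Itgb1 pair was chosen after the values were seen. Its ratio in the 4 db/db libraries lies between -1.28 and -1.18, below all db/m libraries. For Itgal over Itgb2, db/db replicate 3 lies among the db/m libraries.

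Of the members that can pair with Itgb1, Itga5, Itga6, Itgav and Itga9 did not pass the adjusted threshold either. Itga5, the fibronectin receptor, had 94.7, 83.4, 66.0 and 61.4 CPM in db/db replicates 1 to 4, and 53.9, 48.6, 75.5 and 46.6 CPM in db/m replicates 1 to 4. The groups overlapped at db/m replicate 3, which lay above 2 db/db libraries. Its log2 fold change was 0.44 ± 0.19 (SE), with an adjusted p of 0.305 by edgeR, and once db/m replicates 1, 2 and 4 were left out it was 0.02. Itga6, the laminin receptor of stem and progenitor cells, had 167, 171, 144 and 157 CPM in db/db replicates 1 to 4, and 155, 139, 126 and 116 CPM in db/m replicates 1 to 4. The groups overlapped at db/db replicate 3, and the log2 fold change was 0.25 ± 0.12 (SE), with an adjusted p of 0.340 by edgeR.

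Itgav, an alpha subunit of vitronectin receptors, had 32.6, 35.3, 17.8 and 37.7 CPM in db/db replicates 1 to 4, and 31.0, 15.4, 19.6 and 12.7 CPM in db/m replicates 1 to 4. Itga9, which binds VCAM-1 and tenascin, had 24.6, 26.5, 10.5 and 31.0 CPM in db/db replicates 1 to 4, and 17.3, 14.6, 13.0 and 11.99 CPM in db/m replicates 1 to 4. In both genes 3 db/db libraries lay above all db/m libraries, and db/db replicate 3 lay among the db/m libraries for Itgav and below all of them for Itga9. The log2 fold changes were 0.65 ± 0.31 for Itgav and 0.70 ± 0.30 for Itga9 (SE), with adjusted p of 0.354 and 0.301 by edgeR in this order. Relative to Itgb1, no alpha subunit separated the genotypes, and the mean log2 ratio differed (db/db minus db/m) by 0.15 for Itga5, -0.04 for Itga6, 0.37 for Itgav and 0.31 for Itga9, each below the larger of the group SDs.

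**Figure D4:**
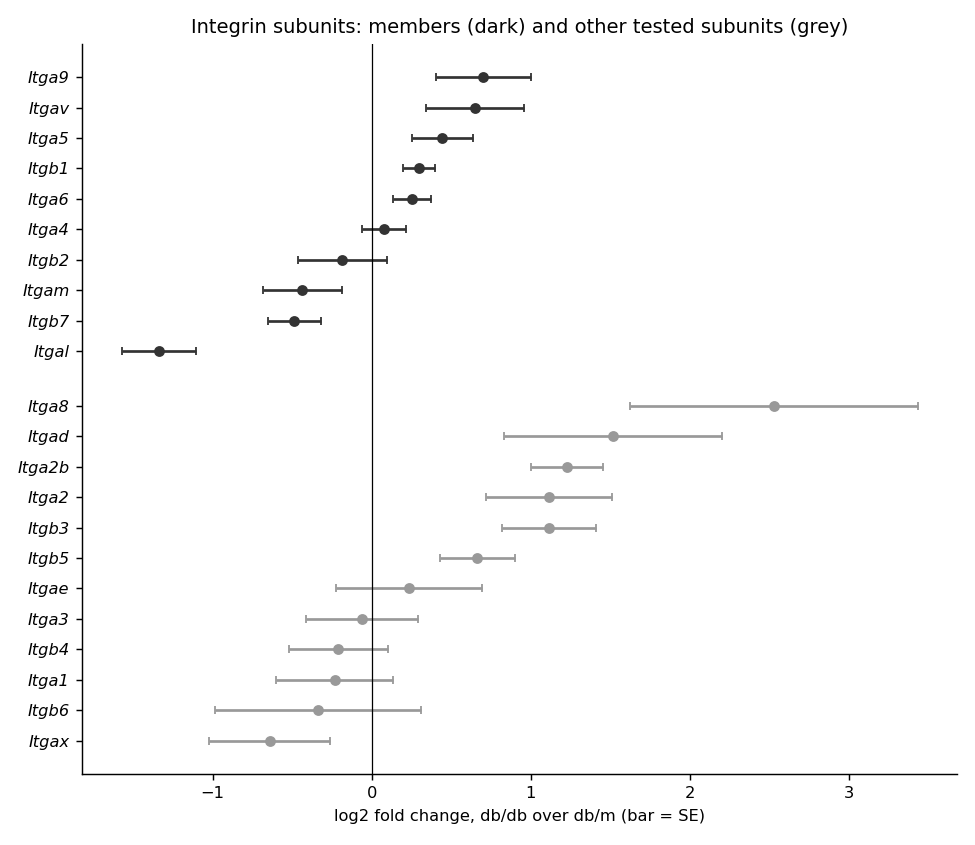
Log2 fold change of db/db over db/m with its SE (n = 4 each) for the 10 leukocyte integrins (dark) and the other 12 integrin subunits tested (grey). Itgal has the most negative value of all subunits plotted, -1.34, and Itga2b (1.23) and Itgb3 (1.11) stand on the positive side, as does the barely detected Itga8 (2.53).

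Several integrins moved among libraries with markers of macrophages. The 9 monocyte and macrophage markers summed to 1822, 1422, 150.04 and 3414 CPM in db/db replicates 1 to 4, and to 1056, 679, 861 and 658 CPM in db/m replicates 1 to 4. Of these markers 8 had positive log2 fold changes. Vcam1, Mrc1, Adgre1 and the complement genes C1qa, C1qb and C1qc were lowest in db/db replicate 3, where C1qa had 9.56 CPM and Adgre1 5.34 CPM, and highest in db/db replicate 4, where C1qa had 331 CPM and Adgre1 172 CPM. Itgb2, Itgav and Itga9 were highest in db/db replicate 4, and Itgam, Itgb2 and Itga9 were lowest in db/db replicate 3. Without db/db replicate 3 the log2 fold changes were 0.84 for Itgav and 0.94 for Itga9, with adjusted p of 0.173 for Itgav and 0.0784 for Itga9 by edgeR. The part of macrophages in these values was not tested.

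**Figure D5:**
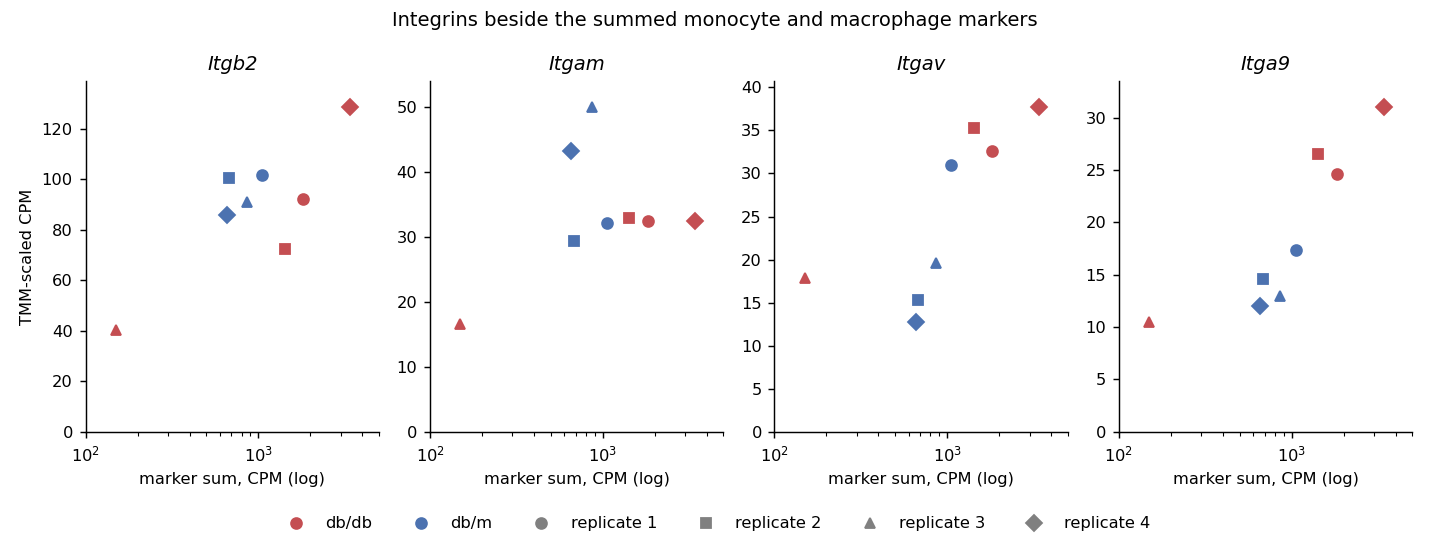
TMM-scaled CPM of Itgb2, Itgam, Itgav and Itga9 (linear axis from 0) against the summed CPM of 9 monocyte and macrophage markers (log axis), 1 point per library. Db/db replicate 3 has the lowest marker sum, 150.04 CPM, and low values of all 4 integrins, and db/db replicate 4 has the highest sum, 3414 CPM.

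With the group means removed, Itgb2 and Itga9 moved most alike among the members over the 8 libraries (Pearson r = 0.92 of log2 CPM), and Itga4 and Itga9 moved most oppositely (r = -0.75). These are descriptions without a test, and the points share libraries, depth and cell makeup. Over the whole table the genes most like Itgb2 were Trpm2 (r = 0.99), Hps4 (0.99) and Ctsd (0.99). Those most like Itga4 were Rps6kl1 (0.98), Clcn3 (0.98) and Ino80c (0.97), and Plxdc2 (0.99) and Mtmr3 (0.98) were among the 3 most like Itga6. These are the highest of 13707 values for each integrin.

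Of 16 other integrin subunits 12 were tested, and 0 passed the adjusted threshold by edgeR's quasi-likelihood test. At an unadjusted p under 0.05 by that test 5 were higher and 0 lower, beside 7.78% and 7.54% of all genes. The median log2 fold change over the 12 was 0.45. The groups were fully apart for 3 of them, Itga2b, Itgb3 and Itga2, all higher in db/db, beside 4.5% of all genes. Itga2b, the platelet integrin CD41, had 429.8, 269, 419 and 605 CPM in db/db replicates 1 to 4, and 210.2, 205, 175 and 146 CPM in db/m replicates 1 to 4. Its log2 fold change was 1.23 ± 0.23 (SE), with an adjusted p of 0.0797 by edgeR. Itgb3, its beta partner and also that of Itgav, had 209 ± 74.6 CPM in db/db and 96.7 ± 32.8 CPM in db/m (SD, n = 4 each), and its log2 fold change was 1.11. In both genes all db/db libraries lay above all db/m libraries, and the authors' deposited table lists both with a false discovery rate under 0.05 (0.000235 for Itga2b and 0.0138 for Itgb3). These 2 genes are among 10 megakaryocyte markers, all of which had a positive value, and the list had a sum of 1723 to 2966 CPM in db/db and 681 to 1358 CPM in db/m, and their part was not tested. Itga2, a collagen receptor, had 4.17 ± 0.83 CPM in db/db and 1.92 ± 0.87 CPM in db/m, and Itga8 had 1.05 ± 0.57 CPM in db/db and 0.182 ± 0.198 CPM in db/m (SD, n = 4 each), with 0 counts in db/m replicate 4.

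Genes that switch integrins on or off were tested in 2 lists, and 0 passed the adjusted threshold in either. Of 16 inside-out activation genes 2 were higher and 1 was lower at an unadjusted p under 0.05, beside 7.78% and 7.54% of all genes. The median log2 fold change of the list was 0.00. The higher genes were Fyb and Rasa3, and Rasa3 acts against Rap GTPases, so the list does not hold activators alone. The groups were fully apart for 2 genes, Fyb and Fermt3, both higher in db/db, beside 4.5% of all genes. Fyb, an adaptor of integrin activation in T cells and platelets, had 102 ± 12.7 CPM in db/db and 69.2 ± 9.03 CPM in db/m, with no overlap and a log2 fold change of 0.55 (adjusted p = 0.103 by edgeR). Rap1a, a small GTPase that recruits talin, had 101 ± 13.9 CPM in db/db and 131 ± 17.2 CPM in db/m. Rasa3, which turns off Rap and Ras GTPases, had 354 ± 28.7 CPM in db/db and 301 ± 15.8 CPM in db/m, and Fermt3, the kindlin of blood cells, had 672 ± 36.9 CPM in db/db and 583 ± 19.4 CPM in db/m (SD, n = 4 each). Of 6 inhibitors 2 were higher (Dok1 and Dok2) and 1 was lower (Itgb1bp1) at an unadjusted p under 0.05. The groups were fully apart for each of these genes, beside 9.03% of all genes in either direction. Itgb1bp1, whose product binds the Itgb1 tail and competes with talin, had 27.3 ± 1.65 CPM in db/db and 38.0 ± 3.67 CPM in db/m, with no overlap and a log2 fold change of -0.48 (adjusted p = 0.116 by edgeR). Dok1 had 41.9 ± 5.18 CPM in db/db and 33.4 ± 2.02 CPM in db/m, and Dok2 had 113 ± 7.58 CPM in db/db and 91.4 ± 10.4 CPM in db/m, while Sharpin had 40.5 ± 2.02 CPM in db/db and 44.9 ± 7.16 CPM in db/m (SD, n = 4 each).

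Of 24 tested genes of outside-in signalling and cytoskeletal linkage 0 passed the adjusted threshold, and the median log2 fold change was 0.09. At an unadjusted p under 0.05 by edgeR 5 were higher and 2 lower, beside 7.78% and 7.54% of all genes. The groups were fully apart for 3 genes, Vcl, Ptk2 and Zyx, all higher in db/db, beside 4.5% of all genes. Vcl, which encodes vinculin and links talin to actin, had 136 ± 23.9 CPM in db/db and 86.0 ± 7.86 CPM in db/m (SD, n = 4 each), with no overlap and a log2 fold change of 0.66 (adjusted p = 0.0871 by edgeR). Ptk2, the focal adhesion kinase, had 30.9 ± 5.02 CPM in db/db and 19.4 ± 3.26 CPM in db/m. Zyx, a protein of focal adhesions, had 782 ± 89.4 CPM in db/db and 548 ± 91.7 CPM in db/m, and the paxillin relative Tgfb1i1 had 7.47 ± 4.53 CPM in db/db and 2.39 ± 1.59 CPM in db/m (SD, n = 4 each). The authors' deposited table lists Fyb, Vcl and Ptk2 with false discovery rates of 0.0205, 0.00642 and 0.0383.

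Of 19 tested ligands and counter-receptors 0 passed the adjusted threshold, and the median log2 fold change was -0.01. At an unadjusted p under 0.05 by edgeR 2 were higher and 2 lower, beside 7.78% and 7.54% of all genes. The groups were fully apart for 1 gene, Icam2, lower in db/db, beside 4.53% of all genes. Icam2, a ligand of the Itgal receptor, had 44.7 ± 7.05 CPM in db/db and 62.4 ± 9.58 CPM in db/m, with no overlap and a log2 fold change of -0.48 (adjusted p = 0.182 by edgeR). Adam15 had 42.4 ± 7.77 CPM in db/db and 60.8 ± 12.6 CPM in db/m. The red cell adhesion protein Icam4 had 13.9 ± 8.76 CPM in db/db and 6.55 ± 1.00 CPM in db/m, and the laminin chain Lama4 had 2.40 ± 0.90 CPM in db/db and 0.731 ± 0.657 CPM in db/m (SD, n = 4 each). Of 13 integrin-associated membrane proteins 0 passed, with 2 higher and 4 lower at an unadjusted p under 0.05, against the same shares of all genes. The groups were fully apart for 2 higher genes, Cd82 among them, and 3 lower genes, Selplg among them. Over all genes these shares were 4.5% and 4.53%. Selplg, the selectin ligand PSGL-1, had 257 ± 17.6 CPM in db/db and 408 ± 116 CPM in db/m, and Slc3a2, the CD98 chain that binds beta subunits and carries amino acid transporters, had 488 ± 155 CPM in db/db and 1076 ± 391 CPM in db/m. The tetraspanin Cd82 had 221 ± 44.9 CPM in db/db and 147 ± 13.8 CPM in db/m (SD, n = 4 each). Selplg, Slc3a2 and Cd82 are all listed with a false discovery rate under 0.05 in the authors' deposited table. Slc3a2 was highest in db/m replicates 1 and 2 (1317 and 1462 CPM), the libraries with the most plasma cell marker RNA (16812 and 18048 CPM), and the part of plasma cells was not tested.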

How the data were processed

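RNA of sorted LSK cells was sequenced from 4 db/db and 4 db/m samples, grouped by the genotype label. Per the submitters' processing notes, STAR 2.7.10a and the mm10 build served for mapping, and reads were counted with featureCounts of Subread 2.0.3 and analysed with edgeR 3.40.2. The authors deposited a table of raw counts over 13708 genes, with a smallest row total of 79, so low genes had been removed before deposit by a filter not given in the sources used here. The deposited log2 CPM values match TMM-scaled log2 CPM with a prior count of 2 to rounding error. The authors' deposited p-values and false discovery rates are cited by name. Intergenic shares come from the deposited mapping statistics.

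From the counts, edgeR 4.0.16 (R 4.3.3) gave TMM scaling, filterByExpr (0 genes removed), a quasi-likelihood test between the genotypes without covariates, and Benjamini-Hochberg adjustment over all genes at 0.05. The SE is the log2 fold change divided by the root of the F statistic. The 21 rows whose symbol had become a date were kept under their position. CPM per kilobase divides CPM by the deposited gene length, which is the summed length of the exon blocks. Which transcript forms were expressed is not known, so ratios of these levels are not counts of molecules. The biological coefficient of variation was 31.3%. Over pairs of libraries the lowest chi-square per gene was 47.9, far above sampling noise. The test was checked on simulated data.

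The members and lists were chosen with earlier results of these data known. Named from the lists are the called genes or, where there was none, the 4 of smallest p, and for Itgb2, Itga4 and Itga6 the 3 genes of highest correlation. Of the genes this rule names, 2 are not reported here. Alternatives were scaling by RLE or by upper quartile, testing with no filter, at least 1 CPM in 4 libraries, the likelihood ratio test, DESeq2 1.42.0, limma-voom 3.58.1 with and without quality weights or a block by title prefix, and the omission of each library. Omitting 3 db/m libraries of high intergenic share, or 2 db/db libraries of 1 title prefix, was added after seeing the data. Each title prefix occurs in 1 genotype, so prefix and genotype cannot be told apart in full. Of the cell type lists, those not described with the integrins had summed levels that overlapped between the groups, except the erythroid list (1614 to 4358 CPM in db/db and 847 to 1143 CPM in db/m).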

Additional observations from a re-analysis of the deposited data

Results flagged for a closer look

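Itgam in db/db replicate 3, at 16.6 CPM, stood apart from the other 3 db/db libraries (32.4 to 32.8 CPM) by more than Dixon's 95% limit for 4 samples. It was the only such value among the 20 groups of 4 libraries checked for the 10 integrins, and chance gives about 1 in 20. The same library had the lowest macrophage marker sum, 150.04 CPM, and the highest erythroid marker sum, 4358 CPM, of the 8 libraries. The part of these cells was not tested.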

How the results depend on the processing

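Of the 10 log2 fold changes, 8 kept their direction in all 19 alternatives, while Itgb2 turned in 1 (0.0453 without db/db replicate 3) and Itga4 in 3 (-0.0126 with quality weights, -0.0622 without db/db replicate 3 and -0.148 without the 2 db/db libraries of the second title prefix). Leaving out 1 library gave -0.486 to 0.0453 for Itgb2 and -0.0622 to 0.140 for Itga4. The cause was not tested. The count of members called was 0 higher in every alternative, and 1 lower (Itgal) with the likelihood ratio test, DESeq2 and quality weights, and 0 to 1 without 1 library. Over all genes the calls were 285 higher and 302 lower with the likelihood ratio test, 354 higher and 403 lower with DESeq2, 68 higher and 124 lower with quality weights, 0 and 0 with limma-voom or upper-quartile scaling, 11 lower with the title prefix as a block, and 4 higher and 8 lower without the 2 db/db libraries of the second title prefix. Leaving out 1 library gave 0 to 12 higher and 0 to 78 lower calls. In the other lists the likelihood ratio test called 2 other integrin subunits, 1 inside-out activation gene, 2 outside-in genes and 4 associated membrane proteins, and DESeq2 called 2, 1, 4 and 5 in the same order and 1 inhibitor. Scaling moved the median of all genes by -0.01 (RLE) and 0.02 (upper quartile). No paired analysis was possible because the replicate numbers were given in accession order and mark no shared animal or day. Depth did not limit the members, which had at least 384 counts in each library.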
